A study of Arabidopsis thaliana with 24 samples.

Results

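The genes described here are 100 whose group means were lower in Arabidopsis shoots lacking SHORT-ROOT (SHR), at both time points and in both catalase genotypes. They were chosen from all 33602 loci of a count table by their measured levels. Mean CPM (each count scaled to the total of its library) was taken per group, and 14829 genes with 5 CPM or more in Col-0 or cat2 at 0 h were kept. Each kept gene was then scored by the smallest of 4 differences of log2(mean CPM + 1) between a group with SHR and the matching group without it. The 100 highest scores are the members, so their levels with and without SHR are given as a description and carry no test. Since the minimum was set in groups that have SHR, a gene could enter only through the groups in which members are high.

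RNA was sequenced from shoots of 3-week-old Arabidopsis thaliana seedlings of the Columbia-0 ecotype. The 8 groups of 3 libraries were cat2shr, cat2, shr and Col-0 at 24 h of photorespiratory stress, and cat2shr, cat2, shr and Col-0 at 0 h. Mutant cat2 lacks CATALASE2, mutant shr lacks SHORT-ROOT, cat2shr carries both mutations and Col-0 is the wild type. No allele is named in the labels. All seedlings grew for 21 days on agar plates with 1% sucrose at 21 °C under 16 h of light at 100 µmol photons (per square metre and second) with 8 h of dark. The 24 h groups were then sealed with Parafilm, which limits gas exchange, and kept in continuous light, so sealing, light and elapsed time cannot be told apart. The labels do not say whether replicates came from separate plants, so a p-value covers the spread among these libraries and no more.

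SHR is a GRAS-family transcription factor. In roots it is made in the stele and moves outward by a single cell layer, where it acts with SCARECROW (SCR) to specify the endodermis. In leaves SHR and its partners are known to act in the bundle sheath around the veins and in the timing of cell division, and shr plants have short roots and small shoots. CAT2 is the main leaf catalase, which removes hydrogen peroxide made in peroxisomes during photorespiration.

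Depth was such that 1 CPM stood for 26.4 counts in the shallowest library and 40.1 counts in the deepest. CAT2 (AT4G35090) averaged 29.9 CPM in cat2shr and 27.3 CPM in cat2 at 24 h, against 407 CPM in shr and 866 CPM in Col-0. At 0 h it averaged 21.0 CPM in cat2shr and 18.3 CPM in cat2, against 209.8 CPM in shr and 355 CPM in Col-0. The labels and these levels matched in every group. Replicate 1 of shr at 0 h had 549 tested genes over 2-fold away from the mean of the other replicates, replicate 1 of cat2shr at 0 h had 405, and the other libraries had 10 to 370. With both left out, 85 of the 100 genes were still chosen by the same rule. The summed level of 9 shoot markers spanned 12240 to 15470 CPM in cat2shr, 10270 to 15090 CPM in cat2, 21110 to 25540 CPM in shr and 24710 to 31700 CPM in Col-0 at 24 h. This sum spanned, at 0 h, 26430 to 31290 CPM in cat2shr, 31300.0 to 31840 CPM in cat2, 35250 to 35590 CPM in shr and 42390 to 45440 CPM in Col-0. The 19 root markers summed to 57.7 to 192.7 CPM over all libraries, and 5 of them passed the filter on low counts. In whole shoots, fewer cells of a type and less RNA per cell cannot be told apart.

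Among the members are PHOSPHATE 2 (PHO2), SULTR2;1 and APS4, whose transcripts hold pairing sites for microRNAs of plant phosphate and sulfate starvation. miR399 is known to guide cleavage of PHO2 transcripts when phosphate is scarce, and miR395 does so for sulfate transporter and ATP sulfurylase transcripts when sulfate is scarce. The mature sequences are shown with the seed, bases 2 to 8, in capitals. They are read from the RefSeq annotation of build TAIR10.1, at chr2:14445084-14445104 (plus strand) for MIR399f, chr1:10227165-10227185 (plus strand) for MIR399a, chr2:14442988-14443008 (minus strand) for MIR399d and chr1:9363206-9363226 (minus strand) for the sequence shared by MIR395a, MIR395d and MIR395e.
MIR399f: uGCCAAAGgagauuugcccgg
MIR399a: uGCCAAAGgagauuugcccug
MIR399d: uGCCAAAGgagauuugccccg
MIR395a: cUGAAGUGuuugggggaacuc
The 3 miR399 sequences share 1 seed, and miR395 has a different one.

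The matching sites in the 3 members follow, with the letters that face the seed in capitals. PHO2 holds 5 sites in its 5′ UTR on the minus strand of chromosome 2, and 3 are printed. The first lies at chr2:14281884-14281904 and pairs with MIR399f with 0 mismatches and 2 G:U pairs. Another, at chr2:14282106-14282126, pairs with MIR399a with 0 mismatches and 2 G:U pairs, and the one at chr2:14281973-14281993 with 1 mismatch and 1 G:U pair. The APS4 site is in the coding sequence at chr5:17591121-17591141 (minus strand), with 1 mismatch and 1 G:U pair to MIR395a. The SULTR2;1 site is in the coding sequence at chr5:3193268-3193288 (plus strand), with 2 mismatches and 1 G:U pair.
PHO2 site 1: uugggcaaaucucCUUUGGCa
PHO2 site 2: uagggcaaaucuuCUUUGGCa
PHO2 site 3: uagggcauaucucCUUUGGCa
APS4 site: gaguuccuccaaaCACUUCAu
SULTR2;1 site: aaguucucccaaaCACUUCAa
The stretch CUUUGGC facing the seed is the same in each PHO2 site printed, and CACUUCA is the same in APS4 and SULTR2;1. Counting ungapped pairings with a penalty of 3 or less (1 for a mismatch, 0.5 for a G:U pair), 12 of 97 member transcripts (12.4%) held a site for any of 349 annotated mature sequences. Among 19700 tested genes searched the same way, 3251 (16.5%) held one. Both families are shown because the members hold known targets of them. The PHO2 pairings are given for MIR399f and MIR399a, whose own loci had only 2 and 1 counts over all 24 libraries, and most miR399 precursor counts came from MIR399d.

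The members' scores ran from 2.73 for AT3G62950, annotated as a thioredoxin superfamily protein, to 0.72 for AT2G29670, with a median of 0.97. In 8 members every one of the 4 differences was 2 or more on the log2 scale, and in 44 it was 1 or more. The median member difference was -1.59 for shr against Col-0 and -1.24 for cat2shr against cat2 at 24 h. At 0 h it was -1.40 for shr against Col-0 and -1.33 for cat2shr against cat2. Together the members took 0.611% of counts in cat2shr and 1.45% in cat2 at 24 h, and 0.419% in shr against 1.69% in Col-0. At 0 h these shares were 0.380% in cat2shr and 0.892% in cat2, and 0.459% in shr against 1.22% in Col-0. Among the 14829 kept genes, 3128 had a lower mean in all 4 groups without SHR and 3597 a higher mean in all 4, so genes moving one way everywhere were common in both directions.

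**Figure D1:**
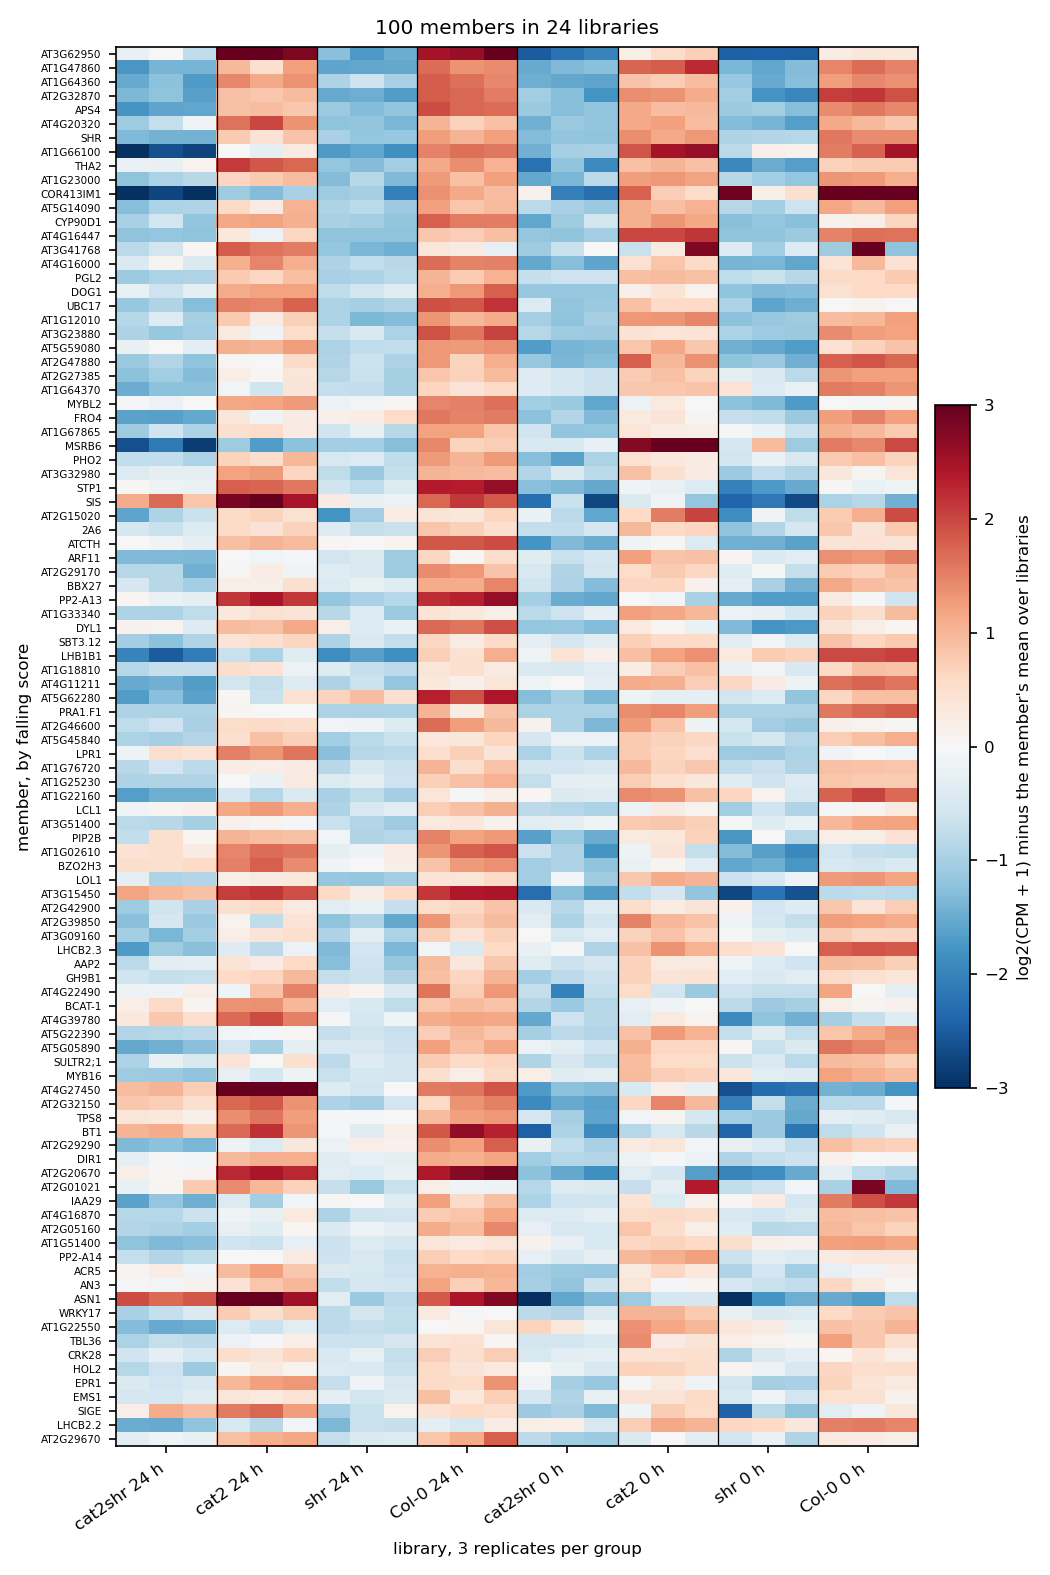
Each row is a member by falling score and each column a library, grouped as cat2shr, cat2, shr and Col-0 at 24 h and then at 0 h. Colour gives log2(CPM + 1) minus the member's mean over the 24 libraries. At each time nearly all 100 members are lower in the columns of cat2shr than of cat2 and in those of shr than of Col-0, as the rule requires, while the pattern over time differs from member to member.

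All 3 libraries without SHR lay below all 3 with SHR in each of the 4 pairs for 89 members, in 3 pairs for 8 and in 2 or fewer for 3. Over all 20347 genes tested, 5.84% did so in all 4 pairs. For single pairs the share was 22.3% for shr at 24 h, 23.6% for shr at 0 h, 34.3% for cat2shr at 24 h and 22.9% for cat2shr at 0 h. By edgeR's quasi-likelihood test 97 members were lower in shr than in the wild type at 24 h and 98 at 0 h, where 26.9% and 24.1% of all genes tested were. In cat2shr 94 members were lower than in cat2 at each time, where 28.1% of all genes tested were at 24 h and 17.8% at 0 h. Calls in either direction made up 52.7% of all genes tested for shr against Col-0 at 24 h and 45.3% at 0 h, and 55.1% for cat2shr against cat2 at 24 h and 34.9% at 0 h. The members' counts follow from their choice, and nothing is read from them. The difference nearest to 0, which sets the score, was cat2shr against cat2 at 24 h in 39 members and shr against Col-0 at 24 h in 9. It was shr against Col-0 at 0 h in 26 members and cat2shr against cat2 at 0 h in 26. Just inside the threshold stood SIGE (AT5G24120) with 0.7314, LHCB2.2 (AT2G05070) with 0.7294 and AT2G29670 with 0.7248. Just outside stood BGAL4 (AT5G56870) with 0.7248, AT5G25475 with 0.7240 and AT2G19930 with 0.7227. The last members and the first genes left out differ little, so the lower end of the list is arbitrary.

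**Figure D2:**
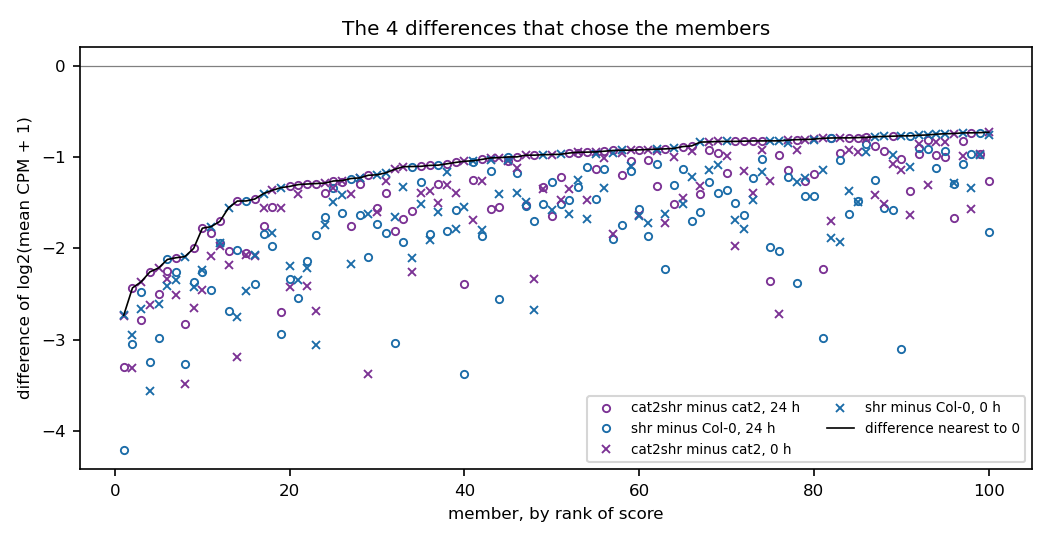
The x axis is the rank of the member by score and the y axis the difference of log2(mean CPM + 1) between the group without SHR and its match with SHR. Points are the 4 differences and the line is the one nearest to 0, which runs from -2.73 at rank 1 to -0.72 at rank 100. The spread between the 4 differences is wide at most ranks, so many members had a larger drop in some pairs than their score shows.

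SHR itself (AT4G37650), the mutated gene, ranked 7th by score. It had 0.914, 0.678 and 0.729 CPM in shr and 8.01, 6.60 and 7.79 CPM in Col-0 at 24 h, beside 0.499, 0.413 and 0.411 CPM in cat2shr and 5.53, 4.14 and 5.89 CPM in cat2. SHR had, at 0 h, 1.00, 1.07 and 1.07 CPM in shr and 10.2, 9.04 and 9.05 CPM in Col-0, and 0.523, 0.665 and 0.633 CPM in cat2shr and 8.98, 7.26 and 8.33 CPM in cat2. Reads were left at the locus in every library without SHR, and the groups did not overlap. In cat2 plants, which have a working SHR, the transcript was lower than in Col-0, with a log2 change of -0.53 ± 0.12 (log2 ± SE) at 24 h (adjusted p = 0.000985) and of -0.35 ± 0.12 at 0 h (adjusted p = 0.0411). It was the only member of the SHORT-ROOT network list of 12 genes, all of which were tested. Of these, 1 was higher and 5 lower in shr than in the wild type at 24 h, with the same counts at 0 h. In cat2shr 3 were higher and 6 lower than in cat2 at 24 h, and 1 higher and 5 lower at 0 h. In either direction 50% of the list were called in shr at each time, beside 52.7% of all genes tested at 24 h and 45.3% at 0 h. In cat2shr it was 75% beside 55.1% at 24 h and 50% beside 34.9% at 0 h. Outside the members, SCL23 (AT5G41920), a GRAS gene close to SCARECROW, differed by -1.35 ± 0.16 in shr against Col-0 at 24 h (adjusted p = 8.26e-07). In shr against Col-0 JKD (AT5G03150), a zinc finger partner of SHR, differed by -1.28 ± 0.19 at 0 h (adjusted p = 2.31e-05). At the same time the cyclin gene CYCD6;1 (AT4G03270), a known SHR target in roots, differed by -1.51 ± 0.19 (adjusted p = 5.10e-06). In the other direction, NUC (AT5G44160) was higher in cat2shr than in cat2 at 0 h by 1.03 ± 0.21 (adjusted p = 0.000855). MGP (AT1G03840), below 1 CPM on average in both groups, was higher in cat2shr than in cat2 at 24 h by 2.15 ± 0.44 (adjusted p = 0.00041). SCR (AT3G54220) differed little, by -0.29 in shr against Col-0 at 24 h (adjusted p = 0.00308). In cat2shr against cat2 at 24 h SCR was higher by 0.25 (adjusted p = 0.0108). At 0 h it differed by -0.17 in shr and -0.06 in cat2shr, and neither passed.

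PHO2 (AT2G33770) encodes a ubiquitin-conjugating enzyme known to limit phosphate transporters. It had 73.3, 76.7 and 60.1 CPM in shr and 249, 208 and 248 CPM in Col-0 at 24 h. It had 60.7, 60.8 and 52.7 CPM in cat2shr and 163, 149 and 205 CPM in cat2 at 24 h. The lowest library with SHR had more than any library without it at that time, and the same was true at 0 h. At 0 h PHO2 had 69.0, 89.2 and 73.2 CPM in shr and 177, 193 and 162 CPM in Col-0, and 41.3, 32.8 and 52.8 CPM in cat2shr and 142, 127 and 122 CPM in cat2. The 4 folds, taken with 1 CPM added, were 3.33 and 2.29 lower in shr than in the wild type and 2.93 and 3.03 lower in cat2shr than in cat2, at 24 h and 0 h. PHO2 was also lower in cat2 than in the wild type, with a log2 change of -0.45 ± 0.13 at 24 h (adjusted p = 0.00575) and of -0.59 ± 0.13 at 0 h (adjusted p = 0.00364). It was lower in cat2shr than in shr at 0 h, with a log2 change of -0.92 ± 0.14 (adjusted p = 0.00104), a call lost when only those groups were fitted and kept under the other alternatives run.

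Most other genes of phosphate starvation moved the opposite way to PHO2. Of 25 listed genes 22 were tested, and 19 were higher without SHR in each of the 4 comparisons, with medians of 3.47 and 3.39 on the log2 scale for shr against Col-0 at 24 h and 0 h. For cat2shr against cat2 the medians were 3.59 at 24 h and 3.45 at 0 h. Over all genes tested, 25.8%, 21.3%, 27.0% and 17.2% were higher in the same order of comparisons. The phosphate transporter gene PHT1;4 (AT2G38940) was higher by 4.37 ± 0.19 in shr than in the wild type at 24 h (adjusted p = 3.42e-12). PLDZ2 (AT3G05630), a phospholipase of lipid remodelling, was higher by 4.14 ± 0.17 at 0 h (adjusted p = 2.33e-12), and SQD1 (AT4G33030), of sulfolipid synthesis, by 2.05 ± 0.10 at 24 h (adjusted p = 7.62e-12). The list genes called lower in at least 1 comparison were PHO2, SPX4 (AT5G15330) and PHR1 (AT4G28610), the last 2 named after their values were seen. The list and its contrast with PHO2 were chosen with these data known.

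The precursor loci of miR399 were counted in the same libraries, though the poly-A libraries measure precursors and not the mature miRNA. MIR399d (AT2G34202) had 47, 62 and 37 counts in shr and 0, 0 and 0 counts in Col-0 at 24 h. It had 32, 27 and 60 counts in cat2shr and 0, 0 and 2 counts in cat2 at 24 h. Hardly a read came from any library with SHR. At 0 h MIR399d had 33, 26 and 28 counts in shr and 0, 0 and 0 in Col-0, and 22, 32 and 30 in cat2shr and 1, 0 and 1 in cat2. The 6 MIR399 loci summed to 191 counts in shr and 1 in Col-0 at 24 h, and to 151 in cat2shr and 7 in cat2. At 0 h they summed to 120 counts in shr and 0 in Col-0, and to 109 in cat2shr and 5 in cat2. MIR399d was higher without SHR in all 4 comparisons, with adjusted p of 9.61e-07 and 1.29e-05 for shr against Col-0 and 4.18e-06 and 3.48e-05 for cat2shr against cat2, at 24 h and 0 h. MIR399c (AT5G62162) was higher in all 4 as well, with adjusted p of 9.31e-05 and 0.000323 for shr and 0.000147 and 0.00276 for cat2shr. The other MIR399 loci had too few counts to be tested. Whether miRNA pairing has a part in the level of PHO2 was not tested. Of the 5 tested genes with a miR399 site PHO2 was the only member, but LINC1, a nuclear matrix gene, was also lower in all 4 comparisons. On the log2 scale LINC1 differed by -1.07 at 24 h and -0.70 at 0 h in shr. In cat2shr it differed by -0.68 at 24 h and -0.59 at 0 h.

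**Figure D3:**
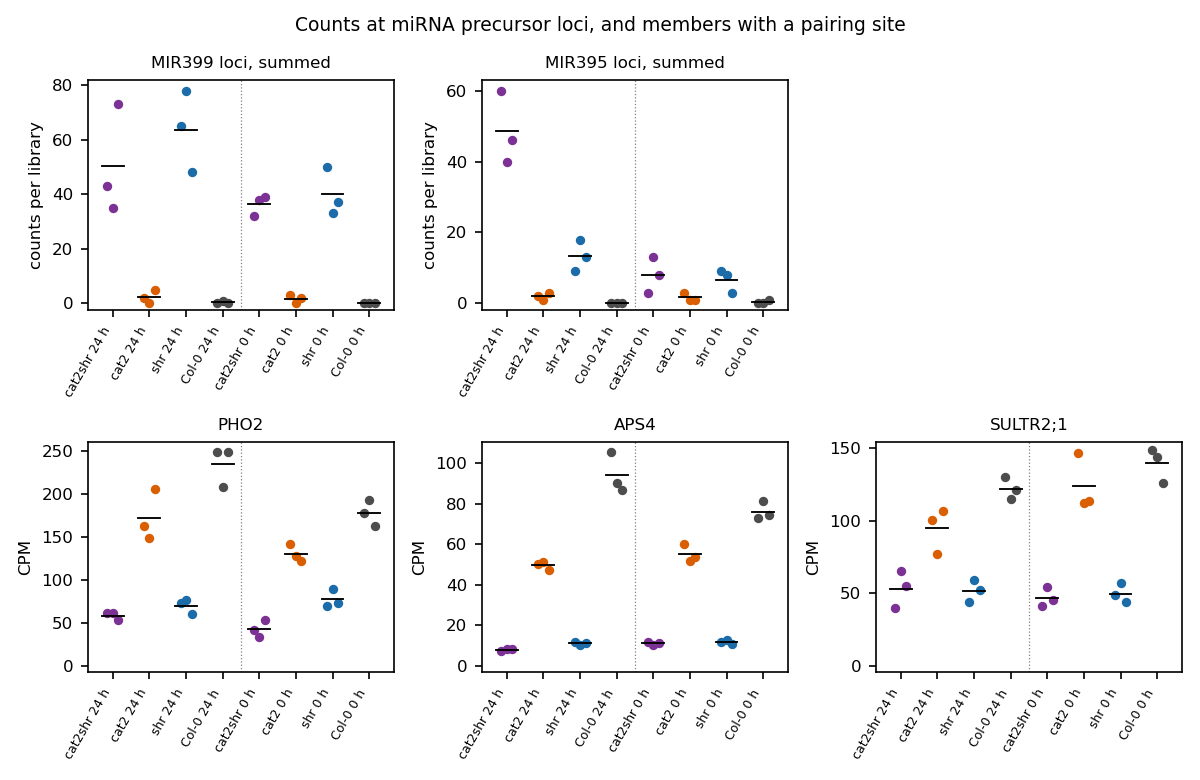
The upper panels give counts per library summed over the MIR399 loci and over the MIR395 loci, and the lower panels CPM per library of PHO2, APS4 and SULTR2;1. Points are libraries, bars are group means, and groups run from cat2shr to Col-0 at 24 h and then at 0 h. MIR399 counts are 32 or more in each library without SHR and 5 or fewer in each library with SHR, while PHO2 is lower wherever SHR is missing.

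APS4 (AT5G43780), known as an ATP sulfurylase, the enzyme of the first step of sulfate assimilation, was among the members with the widest gap. It had 11.9, 10.2 and 11.1 CPM in shr and 106, 90.0 and 86.9 CPM in Col-0 at 24 h. It had 7.13, 8.22 and 8.35 CPM in cat2shr and 50.1, 51.1 and 47.3 CPM in cat2 at 24 h. The libraries without SHR lay far below those with SHR, and the groups did not overlap. At 0 h APS4 had 11.9, 12.6 and 10.4 CPM in shr and 73.0, 81.2 and 74.4 CPM in Col-0, and 11.7, 10.4 and 11.1 CPM in cat2shr and 60.2, 51.5 and 53.5 CPM in cat2. Its folds were 7.88 and 6.11 lower in shr than in the wild type and 5.67 and 4.64 lower in cat2shr than in cat2, at 24 h and 0 h. With SHR intact, APS4 was lower in cat2 than in the wild type, with a log2 change of -0.92 ± 0.09 at 24 h (adjusted p = 3.11e-08) and of -0.61 ± 0.09 at 0 h (adjusted p = 8.49e-05). SULTR2;1 (AT5G10180), a sulfate transporter of vascular tissue, had 44.2, 59.1 and 52.1 CPM in shr and 130.3, 115 and 121 CPM in Col-0 at 24 h. It had 39.7, 65.3 and 54.6 CPM in cat2shr and 100.4, 76.8 and 107 CPM in cat2 at 24 h, where the groups come nearer to each other. At 0 h it averaged 49.7 ± 6.63 CPM in shr and 139.6 ± 12.0 CPM in Col-0, and 46.8 ± 6.69 CPM in cat2shr and 124 ± 19.3 CPM in cat2 (SD, n = 3 each). No comparison outside the rule moved SULTR2;1 past the threshold, with log2 changes from -0.37 to 0.36 over the 10. SULTR2;2 (AT1G77990), not a member, went the other way and passed in all 4 comparisons. It was higher by 1.31 ± 0.16 at 24 h and 1.29 ± 0.15 at 0 h in shr than in Col-0. In cat2shr it was higher than in cat2 by 1.30 ± 0.15 at 24 h and 1.16 ± 0.15 at 0 h.

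MIR395e (AT1G69795) had 46, 25 and 25 counts in cat2shr and 0, 0 and 1 in cat2 at 24 h, and 6, 8 and 7 in shr and 0, 0 and 0 in Col-0. The locus had, at 0 h, 3, 6 and 5 counts in cat2shr and 1, 0 and 0 in cat2, and 2, 0 and 1 in shr and 0, 0 and 0 in Col-0. Only cat2shr at 24 h had over 8 counts in a library, and each library of that group had 25 or more. By edgeR's test it was higher in cat2shr than in cat2 at both times (adjusted p = 4.75e-06 at 24 h and 0.0114 at 0 h). In shr against Col-0 it was higher at 24 h (adjusted p = 0.000713) and did not pass at 0 h (adjusted p = 0.125). None of the 4 other tested genes with a miR395 site was called lower in all 4 comparisons. AT4G23840 had log2 differences below 0 in all 4, and only that of cat2shr against cat2 at 24 h passed (-1.11 ± 0.10, adjusted p = 1.19e-08). APS1 (AT3G22890), another ATP sulfurylase gene, differed by 0.51 in shr and -0.65 in cat2shr at 0 h on the log2 scale, and only the second passed (adjusted p = 0.0295). APS3 (AT4G14680), of the same family, was higher without SHR at 24 h, by 1.09 in shr (adjusted p = 0.00202) and 1.33 in cat2shr (adjusted p = 0.000279), and at 0 h it was higher by 0.81 in shr (adjusted p = 0.0136) and differed by -1.06 in cat2shr (adjusted p = 0.00318). GUN5 (AT5G13630), of chlorophyll synthesis, also holds a miR395 site. It differed by -0.36 at 24 h (adjusted p = 0.0480) and -0.69 at 0 h (adjusted p = 0.000885) in shr. In cat2shr GUN5 was higher by 0.71 at 24 h (adjusted p = 0.00042) and differed by -0.46 at 0 h (adjusted p = 0.0213). These sites and loci were looked up after the members' values had been seen, and whether the miRNA has a part in the levels was not tested.

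LPR1 (AT1G23010), a multicopper oxidase known in root growth on low phosphate, and its neighbour AT1G23000, annotated with a heavy metal domain, were both members. LPR1 had 1.12, 1.77 and 1.89 CPM in shr and 6.21, 7.35 and 5.64 CPM in Col-0 at 24 h. It had 3.52, 6.08 and 5.68 CPM in cat2shr and 13.4, 11.7 and 14.4 CPM in cat2 at 24 h, so that it was highest in cat2 and cat2shr stood above shr. Unlike most members, LPR1 was higher in cat2 than in the wild type, by 1.04 ± 0.18 at 24 h (adjusted p = 4.89e-05) and 0.70 ± 0.19 at 0 h (adjusted p = 0.0111). It was higher in cat2shr than in shr by 1.85 ± 0.20 at 24 h (adjusted p = 5.19e-07). AT1G23000 was at 0.754 CPM in shr and 7.41 CPM in Col-0 at 24 h on average, and passed in none of the 10 comparisons outside the rule. FRO4 (AT5G23980), a ferric reductase gene, had 14.8, 15.7 and 19.8 CPM in shr and 41.9, 39.1 and 41.2 CPM in Col-0 at 24 h. It had 3.69, 3.603 and 3.96 CPM in cat2shr and 17.1, 12.2 and 15.9 CPM in cat2 at 24 h. Here cat2shr was lowest, and FRO4 was lower in cat2 than in the wild type, with a log2 change of -1.43 ± 0.15 at 24 h (adjusted p = 1.20e-07) and -1.25 ± 0.15 at 0 h (adjusted p = 1.82e-05). It was lower in cat2shr than in shr, with a log2 change of -1.98 ± 0.17 at 24 h (adjusted p = 3.39e-08). FRO4 belongs to a family with close relatives, and reads shared with them would make its level uncertain. The listed iron deficiency genes moved the other way. Of 16 tested, 14 were higher and 0 lower in shr than in the wild type at 24 h, and 11 and 0 at 0 h. In cat2shr 10 were higher and 1 lower than in cat2 at 24 h, and 12 and 0 at 0 h. Over all genes tested, 25.8% were higher in shr at 24 h and 21.3% at 0 h, and 27.0% in cat2shr at 24 h and 17.2% at 0 h.

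The member with the highest score, AT3G62950, and AT2G47880 both encode small glutaredoxin-like proteins, a family that uses glutathione and binds TGA transcription factors. AT3G62950 had 1.37, 0.716 and 0.994 CPM in shr and 30.6, 33.4 and 45.7 CPM in Col-0 at 24 h. It had 3.84, 4.57 and 2.31 CPM in cat2shr and 45.1, 49.2 and 38.2 CPM in cat2 at 24 h. The gene had, at 0 h, 0.0335, 0.0520 and 0.0282 CPM in shr and 5.58, 6.14 and 5.97 CPM in Col-0, and 0, 0.185 and 0.410 CPM in cat2shr and 5.39, 7.30 and 8.26 CPM in cat2. At 0 h only 4 counts in all came from the 3 shr libraries, against 530 counts from Col-0. The folds, with 1 CPM added, were 18.5 and 6.65 lower in shr than in the wild type and 9.88 and 6.67 lower in cat2shr than in cat2, at 24 h and 0 h. Stress raised it in every genotype, by 4.34 ± 0.47 in cat2shr (adjusted p = 2.07e-07), 2.77 ± 0.28 in cat2 (adjusted p = 3.31e-08), 4.51 ± 0.73 in shr (adjusted p = 9.39e-05) and 2.60 ± 0.28 in Col-0 (adjusted p = 2.50e-07). At 24 h it was higher in cat2shr than in shr by 1.97 ± 0.34 (adjusted p = 9.39e-05).

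AT2G47880 had 0.201, 0.286 and 0.0282 CPM in shr and 8.70, 9.35 and 8.28 CPM in Col-0 at 0 h. It had 0.262, 0.0739 and 0.149 CPM in cat2shr and 8.62, 4.61 and 6.28 CPM in cat2 at 0 h, and every library without SHR was below 1 CPM. Its stress responses differed in sign between genotypes. It was lower at 24 h than at 0 h, with a log2 change of -1.41 ± 0.31 in cat2 (adjusted p = 0.000407) and of -0.94 ± 0.30 in Col-0 (adjusted p = 0.0107), and higher by 1.61 ± 0.52 in shr (adjusted p = 0.0185). In shr this was a step between levels below 1 CPM, and the difference between the responses of shr and Col-0 was not tested. Of the 19 listed CC-type glutaredoxin genes tested, 4 were higher and 9 lower in shr than in the wild type at 24 h, and 6 higher and 5 lower at 0 h. In cat2shr 4 were higher and 10 lower than in cat2 at 24 h, and 4 and 7 at 0 h, both members being among the lower ones throughout. In either direction 68.4% and 57.9% were called in shr and 73.7% and 57.9% in cat2shr, at 24 h and 0 h. Over all genes tested the shares were 52.7% and 45.3% in shr and 55.1% and 34.9% in cat2shr. Outside the members, GRXS10 (AT3G21460) differed by -8.27 ± 0.52 in cat2shr against cat2 at 24 h (adjusted p = 5.29e-10). ROXY2 (AT5G14070) differed by -4.35 ± 0.42 in shr against Col-0 at 24 h (adjusted p = 6.87e-08). GRXS1 (AT1G03020) was higher by 3.49 ± 0.29 in cat2shr than in cat2 at 24 h (adjusted p = 8.00e-09), so genes of the family moved in both directions.

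The 250 bases before the start of AT3G62950 are shown because it leads the list, and those of BT1 because BT1 is the list's nitrate-responsive member. Both are from TAIR10.1, at chr3:23265977-23266226 (plus strand) and chr5:25335571-25335820 (minus strand), 5′ to 3′, with matches to searched motifs on either strand in capitals.
AT3G62950 promoter: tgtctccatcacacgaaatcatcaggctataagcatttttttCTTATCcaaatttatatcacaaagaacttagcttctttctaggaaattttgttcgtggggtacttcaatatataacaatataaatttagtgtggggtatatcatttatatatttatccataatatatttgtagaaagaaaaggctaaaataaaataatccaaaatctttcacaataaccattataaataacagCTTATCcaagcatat
BT1 promoter: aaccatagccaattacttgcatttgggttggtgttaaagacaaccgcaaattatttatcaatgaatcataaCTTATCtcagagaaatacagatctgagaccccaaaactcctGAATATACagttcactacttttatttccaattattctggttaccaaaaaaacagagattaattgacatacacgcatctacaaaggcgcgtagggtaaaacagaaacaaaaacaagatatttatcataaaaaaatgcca
In AT3G62950 the capitals are 2 matches to GATAAG, the letters bound by GATA factors, read as CTTATC. In BT1 they are 1 match to GATAAG and 1 to GNATATNC, the letters bound by PHR1. In windows of 250 bases before to 50 after the start, GATAAG was found in 22.7% of 97 member promoters and 14.8% of 19699 tested genes' promoters. TTGACC, the W-box of WRKY factors, was in 7.22% of member promoters and 14.3% of tested ones. TTTGTC, bound by the zinc finger partners of SHR, was in 34.0% and 29.2%, TGACG, bound by TGA factors, in 22.7% and 23.8%, and CACGTG, the G-box, in 11.3% and 8.90%. GNATATNC was in 8.25% and 6.23%, AGATTCG, bound by type-B response regulators, in 4.12% and 3.62%, and AGATACG in 1.03% and 2.05%. These shares are a description of letters with no test.

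A set of 12 members is known from other work to rise in darkness or when sugar is short, and most of them rose at 24 h here. They were grouped after their values had been seen, so their counts carry no test. Under stress 12 of 12 were higher in cat2shr, 12 in cat2, 11 in shr and 11 in Col-0, and 0 were lower in any, where 32.7%, 38.7%, 20.4% and 29.7% of all genes tested were higher in the same order. ASN1 (AT3G47340), asparagine synthetase, had 1430, 1206 and 1338 CPM at 24 h and 40.7, 124 and 146 CPM at 0 h in cat2shr. In shr it had 296, 169.9 and 211 CPM at 24 h and 30.8, 106 and 133 CPM at 0 h. The step over time was large in cat2shr and small in shr. With SHR, ASN1 had 2913, 2949 and 2169 CPM at 24 h and 174, 257 and 258 CPM at 0 h in cat2, and 1331, 2005 and 2527 CPM at 24 h and 129, 114 and 219 CPM at 0 h in Col-0. The stress response was 3.82 ± 0.51 in cat2shr (adjusted p = 3.61e-06), 3.65 ± 0.50 in cat2 (adjusted p = 3.04e-06), 1.23 ± 0.46 in shr (adjusted p = 0.0399) and 3.63 ± 0.50 in Col-0 (adjusted p = 6.90e-06). Replicate 1 of shr at 0 h, one of the libraries that stand apart, was the lowest in ASN1.

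AT4G27450 and AT3G15450, a pair of aluminium-induced proteins with YGL and LRDR motifs, and SIS (AT5G02020), annotated as a RLIM-like ubiquitin ligase, all rose over time. AT4G27450 had 202, 215 and 176 CPM at 24 h and 32.0, 44.2 and 42.1 CPM at 0 h in cat2shr, and 79.8, 70.8 and 107 CPM and 16.1, 20.6 and 21.6 CPM in shr. It had 1012, 912 and 1133 CPM at 24 h and 76.5, 122 and 89.8 CPM at 0 h in cat2, and 314, 320.3 and 389 CPM and 38.6, 36.9 and 29.7 CPM in Col-0. The order at 24 h was cat2, Col-0, cat2shr and shr, and no neighbours in that order overlapped. It was higher in cat2 than in the wild type by 1.57 ± 0.19 at 24 h (adjusted p = 5.14e-07) and 1.31 ± 0.19 at 0 h (adjusted p = 8.61e-05). It was higher in cat2shr than in shr by 1.39 ± 0.19 at 24 h (adjusted p = 5.31e-06) and 0.97 ± 0.19 at 0 h (adjusted p = 0.00877), the last lost when only those groups were fitted. AT3G15450 rose under stress by 2.86 ± 0.23 in cat2shr, 2.95 ± 0.23 in cat2, 2.89 ± 0.23 in shr and 3.09 ± 0.23 in Col-0. SIS rose by 3.12 ± 0.47 in cat2shr, 3.62 ± 0.46 in cat2, 2.47 ± 0.48 in shr and 3.01 ± 0.46 in Col-0, each of these 8 changes past the threshold.

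STP1 (AT1G11260), a plasma membrane hexose carrier, had 123, 110.3 and 140.5 CPM in shr and 973, 968 and 1158 CPM in Col-0 at 24 h. It had 193, 169 and 161 CPM in cat2shr and 645, 634 and 561 CPM in cat2 at 24 h. The groups did not overlap, and stress raised it in all genotypes, by 1.42 ± 0.14 in cat2shr, 2.07 ± 0.14 in cat2, 1.08 ± 0.14 in shr and 2.52 ± 0.15 in Col-0. BT1 (AT5G63160), a nitrate-responsive BTB and TAZ protein, rose by 2.76 ± 0.40 in cat2shr, 2.62 ± 0.39 in cat2, 1.63 ± 0.38 in shr and 2.79 ± 0.39 in Col-0. BT1 averaged 140.5 ± 25.7 CPM in shr and 734 ± 199 CPM in Col-0 at 24 h, beside 290.2 ± 34.7 CPM in cat2shr and 508 ± 152 CPM in cat2 (SD, n = 3 each). The other genes of the nitrate list were mixed. Of 24 tested, BT1 included, 7 were higher and 11 lower in shr than in the wild type at 24 h, and 8 and 9 at 0 h. In cat2shr 14 were higher and 4 lower than in cat2 at 24 h, and 11 and 1 at 0 h. In either direction 75% and 70.8% were called in shr and 75% and 50% in cat2shr, at 24 h and 0 h. Over all genes tested the shares were 52.7% and 45.3% in shr and 55.1% and 34.9% in cat2shr. AT2G20670, named in the annotation as a putative sugar phosphate exchanger, rose by 3.29 ± 0.28 in Col-0 (adjusted p = 2.01e-08) and by 1.41 ± 0.27 in shr (adjusted p = 0.000429). THA2 (AT3G04520), threonine aldolase, was at 6.36, 6.22 and 8.10 CPM in cat2shr and 2.78, 2.41 and 3.08 CPM in shr at 24 h, a difference of 1.499 ± 0.25 (adjusted p = 5.22e-05). Also in this set, DYL1 (AT1G28330), a dormancy-associated gene, TPS8 (AT1G70290), of the trehalose-phosphate synthase family, BCAT-1 (AT1G10060), which degrades branched-chain amino acids, and the bZIP gene BZO2H3 (AT5G28770) rose in all 4 genotypes.

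**Figure D4:**
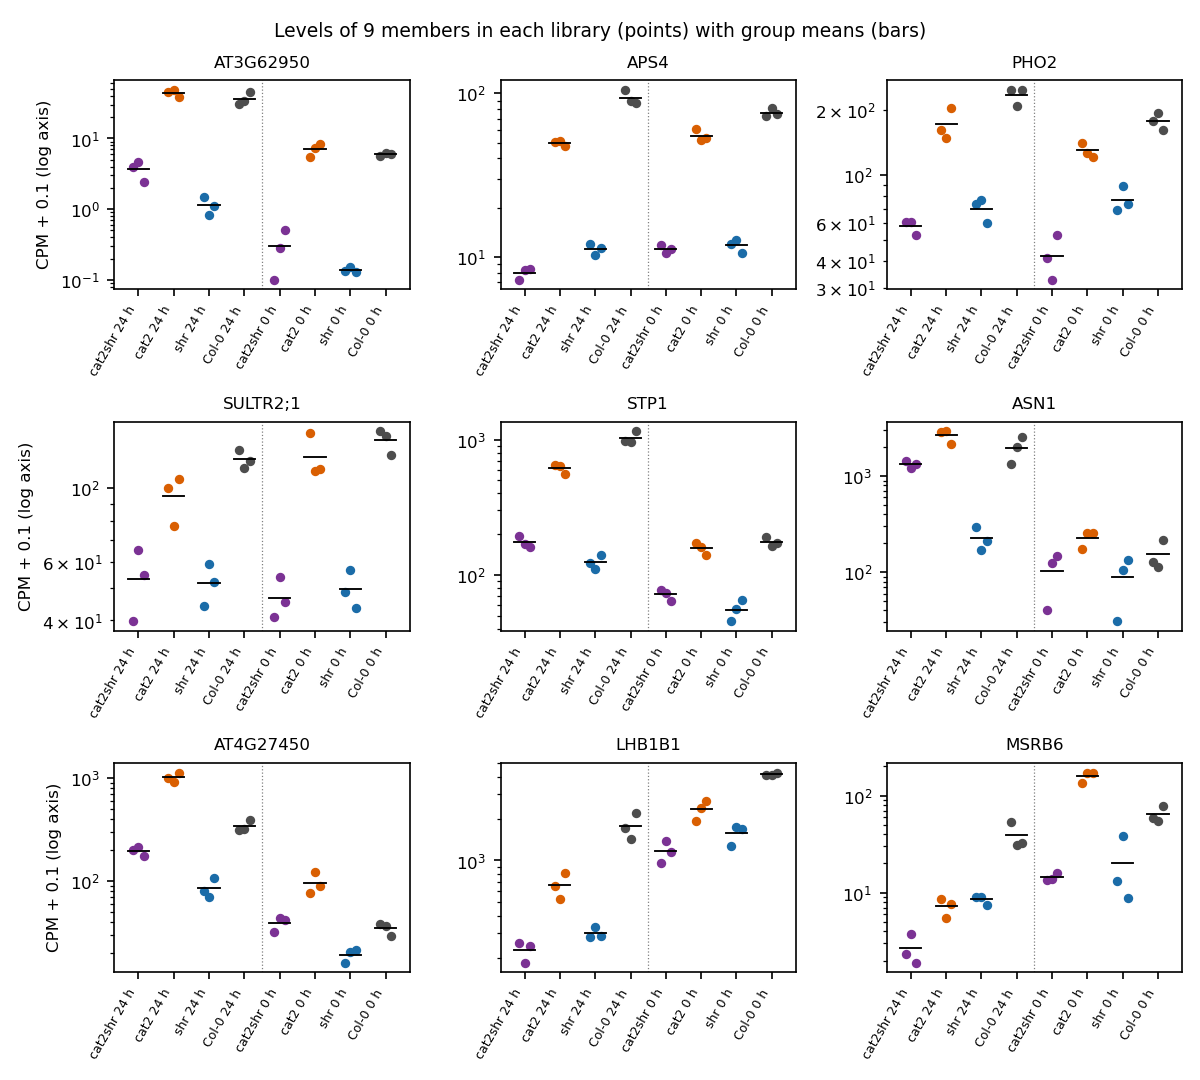
Each panel gives 1 of 9 members, with CPM + 0.1 on a log axis, points for libraries and bars for group means. Groups run from cat2shr to Col-0 at 24 h and then at 0 h. AT3G62950, STP1, ASN1 and AT4G27450 stand higher at 24 h than at 0 h in all genotypes, LHB1B1 and MSRB6 have lower means at 24 h, and APS4 and SULTR2;1 differ mainly by SHR genotype.

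Of 7 members of light harvesting and plastids, grouped after their values had been seen, 6 were lower and 1 higher in cat2shr at 24 h than at 0 h, with the same counts in cat2. In shr 6 were lower and 0 higher, and in Col-0 5 and 0. Of all genes tested 31.7% were lower in cat2shr, 36.3% in cat2, 20.9% in shr and 29.6% in Col-0. LHB1B1 (AT2G34430), a chlorophyll-binding protein of photosystem II, was the most abundant member at 0 h in Col-0. It had 1268, 1753 and 1689 CPM in shr and 4105, 4104 and 4281 CPM in Col-0 at 0 h. It had 958, 1379 and 1151 CPM in cat2shr and 1932, 2394 and 2674 CPM in cat2 at 0 h. Stress lowered LHB1B1, with a log2 change of -2.22 ± 0.19 in cat2shr, -1.71 ± 0.18 in cat2, -2.48 ± 0.19 in shr and -1.27 ± 0.18 in Col-0, the largest drop being in shr (adjusted p = 2.94e-08). It was lower in cat2 than in the wild type, with a log2 change of -1.42 ± 0.18 at 24 h (adjusted p = 1.25e-06) and -0.98 ± 0.18 at 0 h (adjusted p = 0.000757). LHCB2.2 averaged 858 ± 87.5 CPM in shr and 1692 ± 54.2 CPM in Col-0 at 0 h, and LHCB2.3 (AT3G27690) 208 ± 37.2 CPM and 594 ± 20.7 CPM (SD, n = 3 each). Both fell under stress in each genotype, with log2 changes of -1.69 for LHCB2.2 and -1.79 for LHCB2.3 in Col-0. These 3 genes have near-identical relatives that can share reads, so the split between copies is uncertain. Of the 9 shoot markers, LHCB2.2 included, 1 was higher and 6 lower in shr than in the wild type at 24 h, and 1 and 5 at 0 h. In cat2shr 2 were higher and 3 lower than in cat2 at 24 h, and 1 and 5 at 0 h. In either direction 77.8% and 66.7% were called in shr and 55.6% and 66.7% in cat2shr, at 24 h and 0 h. Over all genes tested the shares were 52.7% and 45.3% in shr and 55.1% and 34.9% in cat2shr.

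COR413IM1 (AT1G29395), a cold-regulated chloroplast membrane protein, and MSRB6 (AT4G04840), a methionine sulfoxide reductase that repairs oxidised proteins, had large stress responses. COR413IM1 had 9.81, 10.4 and 4.44 CPM in shr and 57.7, 48.7 and 42.5 CPM in Col-0 at 24 h. Its levels at 0 h were 170.1, 24.7 and 30.7 CPM in shr and 296, 290.1 and 186 CPM in Col-0. Replicate 1 of shr at 0 h was far above the other shr libraries, and the groups still did not overlap. COR413IM1 fell under stress, with a log2 change of -2.36 ± 0.81 in cat2shr (adjusted p = 0.0161), -2.24 ± 0.70 in cat2 (adjusted p = 0.00749), -3.31 ± 0.73 in shr (adjusted p = 0.0015) and -2.42 ± 0.67 in Col-0 (adjusted p = 0.0047). The call in cat2shr was lost without replicate 1 of cat2shr at 0 h, and that in shr when only those groups were fitted. MSRB6 had 8.61, 5.33 and 7.61 CPM at 24 h and 135, 169 and 172 CPM at 0 h in cat2, and 53.8, 31.2 and 32.6 CPM and 58.9, 54.1 and 78.5 CPM in Col-0. It fell, with a log2 change of -4.37 ± 0.43 in cat2 (adjusted p = 3.92e-08), the largest drop of any member in the 4 stress responses, whereas the change in Col-0, -0.76 ± 0.37, did not pass (adjusted p = 0.0867). SIGE, a plastid RNA polymerase sigma factor, was the 1 of the 7 that rose, by 2.11 ± 0.38 in cat2shr (adjusted p = 0.000112) and 1.20 ± 0.37 in cat2 (adjusted p = 0.0064).

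The 11 members grouped as regulators had mixed stress responses. MYBL2 (AT1G71030), a repressor of anthocyanin synthesis, had 82.1, 87.7 and 97.0 CPM in shr and 258, 269 and 294 CPM in Col-0 at 24 h, and rose under stress by 1.28 ± 0.16 in cat2shr, 1.27 ± 0.15 in cat2, 1.27 ± 0.16 in shr and 1.51 ± 0.15 in Col-0. ATCTH (AT2G25900), a zinc finger gene, rose in all 4 genotypes as well, by 1.23 to 1.56 on the log2 scale. The auxin response factor ARF11 (AT2G46530) and MYB16 (AT5G15310), of epidermal cell shape, fell in all 4, with log2 changes of -0.60 to -1.04 for ARF11 and -0.65 to -1.05 for MYB16. IAA29 (AT4G32280), an auxin signalling repressor, had 4.15, 1.96 and 3.26 CPM in cat2 and 10.4, 13.9 and 16.1 CPM in Col-0 at 0 h, a difference of -2.26 ± 0.34 (adjusted p = 0.00013). At 24 h IAA29 was lower in cat2shr than in shr, with a log2 change of -2.29 ± 0.42 (adjusted p = 0.000127). The clock genes LCL1 (AT5G02840, also REVEILLE 4) and EPR1 (AT1G18330, also REVEILLE 7) were members too. LCL1 rose under stress by 1.06 ± 0.16 in cat2shr, 1.22 ± 0.16 in cat2 and 0.75 ± 0.16 in Col-0, and its change in shr, 0.19 ± 0.16, did not pass (adjusted p = 0.37). Whether shr differed from Col-0 in that response was not tested.

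Members with roles in growth and hormones were few. AT5G14090, whose synonym is LAZY1, a gene of shoot gravity response, had 1.44, 1.66 and 1.19 CPM in shr and 9.81, 7.28 and 7.98 CPM in Col-0 at 24 h. It had 0.922, 1.403 and 1.47 CPM in cat2shr and 5.99, 4.52 and 8.60 CPM in cat2 at 24 h. It passed in none of the 10 comparisons outside the rule, the changes spanning -0.39 to 0.28 on the log2 scale. CYP90D1 (AT3G13730), a brassinosteroid hydroxylase, had 1.58, 1.47 and 1.23 CPM in shr and 16.5, 13.6 and 13.8 CPM in Col-0 at 24 h. Its levels at 0 h were 1.14, 1.27 and 1.13 CPM in shr and 4.58, 4.74 and 6.89 CPM in Col-0. CYP90D1 rose under stress in Col-0 by 1.39 ± 0.24 (adjusted p = 6.40e-05), and in cat2 it changed by 0.06 ± 0.24 (adjusted p = 0.824), a difference of responses of -1.33 ± 0.34 (adjusted p = 0.00417). DOG1 (AT5G45830), known for seed dormancy, had 1.83, 2.299 and 2.75 CPM in shr and 9.25, 10.9 and 15.6 CPM in Col-0 at 24 h and rose under stress in all 4 genotypes, by 0.95 in Col-0 to 1.34 in cat2shr. Its neighbour AT5G45840, a receptor-like kinase, was also a member, at 2.04 CPM in shr and 6.34 CPM in Col-0 at 24 h. UBC17 (AT4G36410), a ubiquitin-conjugating enzyme, rose under stress with SHR, by 1.06 ± 0.22 in cat2 (adjusted p = 0.000208) and 2.09 ± 0.23 in Col-0 (adjusted p = 2.22e-07). Without SHR it changed by -0.23 ± 0.25 in cat2shr (adjusted p = 0.449) and 0.44 ± 0.26 in shr (adjusted p = 0.192). Whether the responses of UBC17 with and without SHR differ was not tested.

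Of 20 listed cytokinin genes tested, none a member, 1 was higher and 4 lower in shr than in the wild type at 24 h, and 2 and 9 at 0 h. In cat2shr 4 were higher and 5 lower than in cat2 at 24 h, and 1 and 7 at 0 h. Of 21 vascular and bundle sheath markers, SULTR2;1 included, 5 were higher and 7 lower in shr than in the wild type at 24 h, and 6 and 6 at 0 h. In cat2shr 11 were higher and 3 lower than in cat2 at 24 h, and 4 and 3 at 0 h. Their summed level spanned 853 to 1358 CPM over all libraries. Of the 5 root markers tested, 0 were higher and 2 lower in shr than in the wild type at 24 h, 1 higher and 1 lower in cat2shr than in cat2 at 24 h, and 0 passed at 0 h. Of 6 reference genes, 2 were higher and 1 lower in shr than in the wild type at 24 h, 3 and 0 at 0 h, 2 and 2 in cat2shr against cat2 at 24 h, and 1 and 0 at 0 h. Over all genes tested, 25.8% were higher and 26.9% lower in shr than in the wild type at 24 h, and 21.3% and 24.1% at 0 h. In cat2shr against cat2 these shares were 27.0% and 28.1% at 24 h, and 17.2% and 17.8% at 0 h. The part of the marker genes in the members' levels was not tested.

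A pair of members were at or near 0 whenever SHR was missing. AT4G16447, an uncharacterized protein, had 8 counts in all over the 12 libraries without SHR, 8 of which were at 0, and 1694 counts over the 12 with SHR, where it had 32 to 275 per library. PRA1.F1 (AT1G17700), a prenylated RAB acceptor, had 1 count in all without SHR and 1104 with SHR, 29 to 163 per library. Both fell under stress with SHR. AT4G16447 changed by -2.14 ± 0.30 in cat2 (adjusted p = 3.46e-06) and -0.99 ± 0.29 in Col-0 (adjusted p = 0.00658). PRA1.F1 changed by -1.93 ± 0.27 in cat2 (adjusted p = 1.39e-05) and -1.30 ± 0.25 in Col-0 (adjusted p = 0.000484). The pseudogene AT1G47860 ranked 2nd by score, with 0.352, 0.377 and 0.398 CPM in shr and 12.0, 9.38 and 9.88 CPM in Col-0 at 24 h and 0.224, 0.550 and 0.540 CPM in cat2shr and 6.95, 4.81 and 8.54 CPM in cat2. The 18S ribosomal RNA locus AT3G41768 had 85.8, 54.5 and 85.8 CPM in shr and 53.3, 1164 and 48.3 CPM in Col-0 at 0 h, beside 53.2, 71.1 and 112 CPM in cat2shr and 70.7, 137 and 796 CPM in cat2. At 0 h 1 library of Col-0 and 1 of cat2 stood far above the rest and the groups overlapped, while at 24 h the groups did not overlap in either pair. AT2G01021 was high in the same libraries, with 7.70, 8.48 and 12.7 CPM in shr and 6.35, 104 and 4.76 CPM in Col-0 at 0 h, beside 7.002, 10.09 and 9.76 CPM in cat2shr and 7.95, 11.1 and 74.6 CPM in cat2. Its groups did not overlap in 1 of the 4 pairs, shr and Col-0 at 24 h. Ribosomal RNA is made from many near-identical copies, so the level of AT3G41768 cannot be assigned to that locus.

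The comparison of 24 h with 0 h asked how the members respond to the stress treatment, which the rule did not use, although the libraries are the same. Responses went both ways. In cat2shr 36 members were higher and 29 lower, where 32.7% and 31.7% of all genes tested were, and in cat2 36 were higher and 34 lower, where 38.7% and 36.3% were. In shr 24 were higher and 29 lower, where 20.4% and 20.9% were, and in Col-0 41 were higher and 25 lower, where 29.7% and 29.6% were. Called in either direction were 64.4% of all genes tested in cat2shr, 75% in cat2, 41.3% in shr and 59.3% in Col-0, against totals of 65, 70, 53 and 66 members. With library sizes left unscaled, 33 members were higher and 29 lower in cat2shr, and 34 and 35 in cat2. In shr the split then turned to 27 higher and 23 lower, and in Col-0 it was 41 and 23. Without replicate 1 of shr and cat2shr at 0 h, 30 of 51 members called in shr and 36 of 61 in cat2shr were higher. In all 4 genotypes 20 members were higher, where 11.0% of all genes tested were, and 13 were lower, where 12.2% were. The 20 include all of the low-sugar set but THA2, and AT3G62950, MYBL2, ATCTH, DOG1 and the lipid transfer gene DIR1 (AT5G48485). Their median response was 1.75 in cat2shr, 1.87 in cat2, 1.39 in shr and 1.79 in Col-0 on the log2 scale. The 13 include LHB1B1, LHCB2.2, LHCB2.3, COR413IM1, ARF11 and MYB16, with medians of -1.22 in cat2shr, -1.31 in cat2, -1.20 in shr and -1.04 in Col-0. AT1G22160, annotated as senescence-associated, fell, with a log2 change of -1.94 ± 0.27 in Col-0 (adjusted p = 4.12e-06) and of -2.24 ± 0.33 in cat2shr (adjusted p = 7.70e-06). AT1G66100, annotated as a thionin, a small antimicrobial peptide, fell, with a log2 change of -2.31 ± 0.27 in cat2 (adjusted p = 4.14e-07) and of -1.82 ± 0.29 in shr (adjusted p = 8.21e-05).

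**Figure D5:**
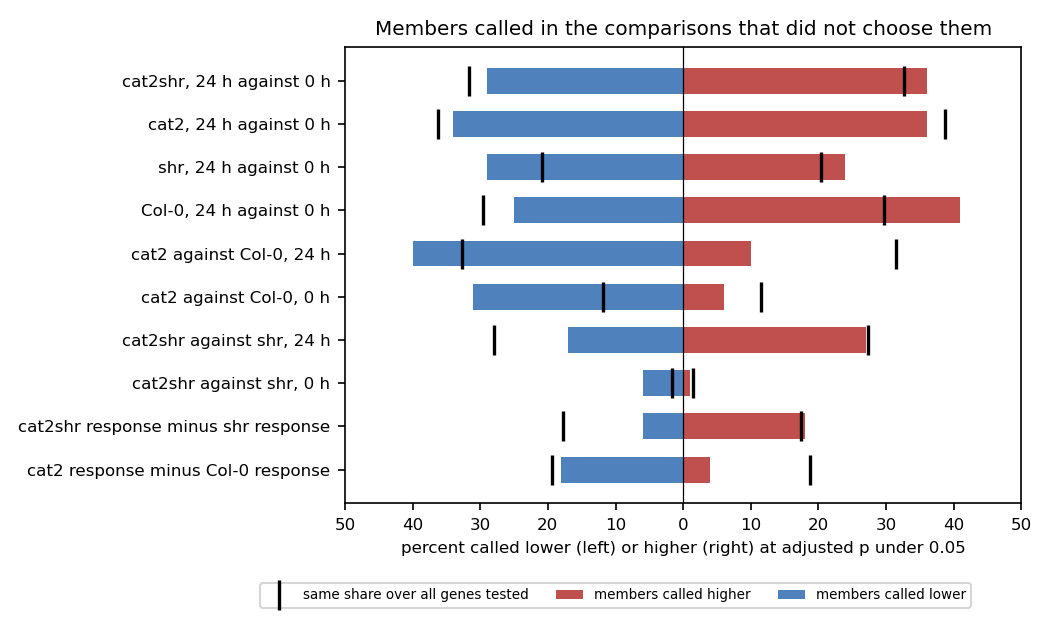
Bars give the percent of the 100 members called higher (right) and lower (left) at an adjusted p under 0.05 in the 10 comparisons that the rule did not use, and black marks give the same share over all 20347 genes tested. In cat2 against Col-0 at 0 h 31% of members were lower, where 11.8% of all genes were. All 10 comparisons use the libraries that chose the members, so the members' shares are not independent of the rule.

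The comparison of cat2 with Col-0 asked what loss of catalase alone does to the members in plants that have SHR. At 24 h 10 members were higher and 40 lower, where 31.4% and 32.7% of all genes tested were. At 0 h 6 members were higher and 31 lower, where 11.5% and 11.8% were. All genes tested include genes under the minimum of 5 CPM, which could not be members. In either direction 64.1% of all genes tested were called at 24 h and 23.3% at 0 h. With library sizes left unscaled, the median of all genes in this comparison was 0.12 at 0 h, against -0.03 with scaling, and the split was 10 higher and 21 lower. The count at 0 h rested partly on single libraries, being 23 without replicate 1 of Col-0 and 23 without replicate 3 of cat2. At both times 23 members were lower in cat2, where 8.41% of all genes tested were, among them SHR, APS4, PHO2, FRO4, LHB1B1, ARF11, IAA29 and COR413IM1. Only LPR1 and AT4G27450 were higher at both times, where 8.28% of all genes tested were. These comparisons use the Col-0 and cat2 libraries that also chose the members, and a member needs a high mean in both. COR413IM1 differed by -2.38 ± 0.70 at 24 h (adjusted p = 0.00652) and -2.56 ± 0.67 at 0 h (adjusted p = 0.0114), the second lost in some fits that left out a library. AT5G62280 had 15.9, 9.30 and 21.4 CPM in cat2 and 80.6, 60.4 and 86.8 CPM in Col-0 at 24 h, a difference of -2.299 ± 0.24 (adjusted p = 1.29e-07). MSRB6 differed by -2.44 ± 0.40 at 24 h (adjusted p = 4.20e-05) and by 1.17 ± 0.37 at 0 h (adjusted p = 0.0281). AT2G32150, a haloacid dehalogenase-like hydrolase, was higher in cat2 at 0 h by 1.43 ± 0.33 (adjusted p = 0.00497), and SIS at 24 h by 1.06 ± 0.42 (adjusted p = 0.0344), a call lost under many alternatives.

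The comparison of cat2shr with shr asked the same where SHR is missing. At 24 h 27 members were higher and 17 lower, where 27.3% and 27.9% of all genes tested were. With library sizes left unscaled the median of all genes was -0.21 and the split turned to 24 higher and 27 lower, so no direction is given for the set. In either direction 55.2% of all genes tested were called at 24 h and 3.03% at 0 h. At 0 h 1 member was higher and 6 lower, where 1.44% and 1.59% were, or 3 higher and 6 lower with library sizes left unscaled. The members called lower at 0 h were SHR, PHO2, COR413IM1, AT1G66100, AT1G67865 and GH9B1 (AT1G70710), and the one called higher was AT4G27450. At both times SHR and AT1G66100 were lower, where 0.781% of all genes tested were, and AT4G27450 was higher, where 0.978% were. The calls at 0 h were fragile, with 3 without replicate 3 of cat2shr, 4 without replicate 2 of cat2shr and 4 without replicate 2 of shr. When edgeR was fitted to those groups alone 0 members passed, with 20 at an unadjusted p under 0.05, and DESeq2 called 11. Among members whose libraries did not overlap, the largest rises at 24 h were ASN1, by 2.74 ± 0.48 (adjusted p = 0.000122), AT3G62950 and LPR1. The largest drops among such members were IAA29, FRO4 and AT5G62280, which differed by -2.24 ± 0.25 (adjusted p = 8.97e-07). AT5G62280 had 4.09, 5.80 and 4.34 CPM in cat2shr and 25.0, 30.1 and 21.6 CPM in shr at 24 h, and the groups did not overlap.

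Differences between stress responses asked whether catalase loss changes the response of a member. They too use the libraries that chose the members. With SHR, the response of cat2 minus that of Col-0 was higher for 4 members and lower for 18, where 18.8% and 19.4% of all genes tested were. With library sizes left unscaled the median of all genes was -0.17 and the split was 1 higher and 26 lower, and without replicate 1 of cat2 at 24 h 14 members in all were called. Without SHR, the response of cat2shr minus that of shr was higher for 18 members and lower for 6, where 17.5% and 17.8% were. With library sizes left unscaled the median of all genes was -0.24 and the split was 14 higher and 11 lower. In either direction 35.3% of all genes tested were called without SHR and 38.2% with SHR. The stress response of PHO2 was higher in cat2shr than in shr by 0.84 ± 0.19 (adjusted p = 0.00232), and LPR1 by 1.58 ± 0.30 (adjusted p = 0.000571). With SHR neither difference passed, at 0.14 ± 0.19 for PHO2 (adjusted p = 0.595) and 0.34 ± 0.26 for LPR1 (adjusted p = 0.32). Whether the differences with and without SHR differ from each other was not tested.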

How the data were processed

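Poly-A RNA of 24 shoot libraries was sequenced, and the authors deposited raw counts for 33602 loci. The submitters' processing notes list featureCounts in Subread 1.4.6, the aligner TopHat2 2.1.0, Trim Galore 0.3.3 and genome TAIR10, without the strand setting of the counting. Symbols were joined by locus tag to the RefSeq annotation of TAIR10.1 (32835 loci matched), which also gave all sequences. CPM was computed by library total. Tests used edgeR 4.0.16 in R 4.3.3: filterByExpr, TMM factors of 0.936 to 1.10, glmQLFit (robust) with 1 mean per group on all 24 libraries, and glmQLFTest, with calls made where the p adjusted after Benjamini and Hochberg was under 0.05 over 20347 genes. All 100 members passed the filter. Shares over all genes tested also include genes under the 5 CPM minimum of the rule, so the sets compared are unlike in level. After ±, log2 changes carry their SE, and CPM means carry the SD of 3 libraries. The code was checked on simulated counts. Members and lists were chosen with earlier results of these data known. Named are the 20 highest scores, list members, up to 3 members per direction and comparison with the largest change without overlap, and up to 3 list genes with the smallest p. Others were picked for their role after their values were seen. Alternatives were other scalings, no filter, DESeq2 1.42.0, fewer groups, a replicate block, each library left out and other settings of the rule. The 10 lists cover glutaredoxins, nitrate, cytokinin, the SHORT-ROOT network, phosphate, iron, shoot, root, vascular and reference genes.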

Additional observations from a re-analysis of the deposited data

Results flagged for a closer look

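The following members are listed because their responses to stress differed between catalase genotypes by the test of the difference itself (edgeR's quasi-likelihood test). With SHR, taking the response of cat2 minus that of Col-0 on the log2 scale, AT4G20320, a CTP synthase, differed by 0.867, BCAT-1 by 0.773 and AT5G45840 by 0.684. AT4G20320 had 37.0, 48.0 and 30.1 CPM in cat2 and 24.0, 18.8 and 21.5 CPM in Col-0 at 24 h, beside 26.0, 27.8 and 22.3 CPM in cat2 and 26.1, 22.9 and 20.4 CPM in Col-0 at 0 h. The call of AT4G20320 was lost under 14 of 32 alternatives and that of AT5G45840 under 20 of 32, so neither is stable. In the other direction MSRB6 differed by -3.61, AT1G66100 differed by -1.85 and PP2-A14 (AT5G52120), a phloem protein 2 gene, differed by -1.45. AT1G66100 had 26.3, 20.8 and 31.2 CPM in cat2 and 75.1, 83.1 and 79.7 CPM in Col-0 at 24 h, beside 98.0, 151 and 167 CPM in cat2 and 76.6, 90.2 and 150.3 CPM in Col-0 at 0 h.

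Without SHR, taking the response of cat2shr minus that of shr, ASN1 differed by 2.59, AT2G32150 by 2.12 and THA2 by 1.64. AT2G32150 had 123, 117 and 98.1 CPM in cat2shr and 36.6, 33.5 and 47.0 CPM in shr at 24 h, and 17.8, 24.1 and 22.5 CPM in cat2shr and 16.2, 42.1 and 24.4 CPM in shr at 0 h. In the other direction FRO4 differed by -1.60, AT5G62280 differed by -1.60 and AT2G29290, a Rossmann-fold protein, differed by -1.002. FRO4 had 3.69, 3.603 and 3.96 CPM at 24 h and 5.04, 6.76 and 4.69 CPM at 0 h in cat2shr, and 14.8, 15.7 and 19.8 CPM at 24 h and 7.80, 7.38 and 5.56 CPM at 0 h in shr.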

How the results depend on the processing

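Up to 32 alternatives were run per result. In the comparison of cat2 with Col-0 at 0 h, 37 members were called, and leaving out a library gave 23 to 37. In cat2shr against shr at 0 h 7 were called, against 4 with no filter on low counts, 11 with DESeq2, 0 with only the groups compared and 3 to 8 leaving out a library. For the response of cat2 minus that of Col-0 22 were called, and 14 to 29 leaving out a library. The remaining counts of members and of list genes, taken in either direction together, stayed within 1.5 times of the reported ones. Counts taken by direction moved further in some comparisons with library sizes left unscaled, as given beside them above. Scoring by the mean of the 4 differences in place of the smallest kept 61 of the 100 members, and the other settings kept 85 to 99. Of 58 results for single members, 47 were called under every alternative, 11 were lost under at least 1 and 0 reversed. Correlations between same-numbered replicates ran from -0.133 (shr, 24 h and 0 h) to 0.368 (cat2shr and shr at 0 h). In no comparison did every pair's correlation pass 0.1. In cat2shr against cat2 at 0 h, though, all 3 replicates correlated best with their own number. These values do not settle whether the numbers pair the samples, and the main fits did not pair them. With a replicate block, 65 members were called in the stress response of cat2shr, 71 in cat2, 54 in shr and 69 in Col-0. The block gave 53 in cat2 against Col-0 at 24 h and 40 at 0 h, 46 in cat2shr against shr at 24 h and 10 at 0 h, and 25 and 23 for the differences of responses without and with SHR. Low counts limit some members in the groups without SHR, such as AT4G16447 and PRA1.F1, described above. In Col-0 at 0 h 27 members were under 10 CPM.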

Other observations

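Of the 100 members 50 carry only a locus number, and 45 fall in none of the 11 roles used above. Several rank near the top. AT1G64360, an uncharacterized protein, had 3.94, 5.13 and 3.81 CPM in shr and 32.3, 28.5 and 24.4 CPM in Col-0 at 24 h, and its neighbour AT1G64370 59.2, 57.6 and 48.2 CPM in shr and 151, 127 and 145 CPM in Col-0. AT2G32870, of the TRAF-like family, had 10.6, 11.0 and 9.28 CPM in shr and 115, 108 and 95.1 CPM in Col-0 at 24 h. At 0 h it had 15.2, 8.63 and 7.56 CPM in shr and 138, 144 and 122 CPM in Col-0, with a fold of 11.9. AT2G32870 was lower in cat2 than in the wild type, with a log2 change of -0.83 ± 0.20 at 24 h (adjusted p = 0.00143) and -0.91 ± 0.20 at 0 h (adjusted p = 0.00341). PGL2 (AT3G49360), 6-phosphogluconolactonase of the pentose phosphate pathway, had 2.81, 2.90 and 3.25 CPM in shr and 14.1, 11.6 and 14.4 CPM in Col-0 at 24 h. AT1G12010, of the 2-oxoglutarate-dependent oxygenases, had 0.474, 1.02 and 0.334 CPM in cat2shr and 3.54, 2.15 and 3.35 CPM in cat2 at 24 h. It had 0.387, 0.0377 and 0.0663 CPM in shr at 24 h, 14 counts in all, so that cat2shr and shr overlapped, with a difference of 2.04 ± 0.52 between them (adjusted p = 0.00255). AT4G16000, an uncharacterized protein, had 1.48, 1.81 and 1.62 CPM in shr and 14.1, 12.2 and 12.4 CPM in Col-0 at 24 h and rose under stress in all 4 genotypes.

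The members lay on all chromosomes, 28 on chromosome 1, 23 on chromosome 2, 14 on chromosome 3, 14 on chromosome 4 and 21 on chromosome 5. Direct neighbours among them were 3 pairs: AT1G23000 and LPR1, AT1G64360 and AT1G64370, and DOG1 and AT5G45840. Of the 100, 97 are annotated as protein coding, 2 as pseudogenes and 1 as ribosomal RNA, and 71 were under 50 CPM in Col-0 at 0 h.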
